A study of Homo sapiens with 6 samples.

Results

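Mitochondrial ribosomal proteins are encoded in the nucleus, made in the cytosol and imported into mitochondria, where they join with 2 ribosomal RNAs of the mitochondrial genome to form the mitoribosome. The genes described here are all protein-coding genes whose symbol is MRPL or MRPS followed by a number and an optional letter. The table held 78 of them among 29810 genes, spread over 21 chromosomes. MRPL names were given to proteins of the large subunit and MRPS names to proteins of the small subunit, although later structures moved a few. By their place in the structure, 26 belong to the small subunit and 51 to the large subunit. The large subunit count includes MRPS18A and MRPS30, which carry small-subunit names, and the remaining gene, MRPS36, encodes a protein now placed in the 2-oxoglutarate dehydrogenase complex.

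The mitoribosome translates only the few proteins that mitochondrial DNA encodes, all of them subunits of the respiratory chain or of ATP synthase. Many of its proteins have homologues in bacterial ribosomes, and many others have none. Acute myeloid leukaemia cells are known for their sensitivity to tigecycline, an inhibitor of the bacterial ribosome that also blocks mitochondrial translation.

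The 6 samples were RNA of Kasumi-1, an established human acute myeloid leukaemia line of myeloblasts with the t(8;21) fusion of RUNX1 and RUNX1T1. In the control group 3 samples were kept with the control agent, and in the other group 3 samples were kept with the agent I1 (a code name that the labels do not explain) at 0.125 µM. Both lasted 48 h, and the labels do not say if replicates were grown separately, so that their spread may be technical. Levels are FPKM, fragments per kilobase of exon scaled to the library total, and the library totals behind them ran from 16391000 to 18204000 fragments. Control replicate 1 stood apart from the other 5 libraries, at -43.8 on the first principal component (52.1% of the variance) against -2.90 to 19.8. All 10 markers of Kasumi-1 myeloblasts were at 1 FPKM or more on average, led by MPO at 7383 FPKM, and they summed to 7529 to 9942 FPKM in control and 6897 to 7624 with I1. Of the other cell types, the 3 erythroid markers in the table summed to at most 0.0131 FPKM in any library, with HBA1 and HBA2 at 0. The 4 T and NK cell markers summed to 1.73 to 2.08 FPKM in control and 0.851 to 2.32 with I1. The 4 monocyte and neutrophil markers summed to 5.38 to 6.47 and 2.69 to 5.23. The 4 epithelial and fibroblast markers summed to 23.2 to 27.6 and 26.7 to 31.3, nearly all of it EPCAM, with KRT8 at 0; the part of these markers in the results below was not tested.

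Promoter sequence was read for the 69 genes that matched the RefSeq windows of GRCh38.p14, which run from 250 bases before the annotated start to 50 after it. The letters CCGGAAG, the core of sites bound by ETS factors such as GABPA, stood on either strand in 30 of the 69 windows (43.5%) and in 12.2% of the windows of all 27305 genes. AAGATGGC, the core of YY1 sites, stood in 21 (30.4%) and in 3.52% of all. GCATGCGC, one arm of the palindromic NRF1 site, stood in 6 (8.70%) and in 3.68% of all, and none of the 3 motifs contains another. The 27305 genes include many that were low or absent in these cells. Shares among expressed or protein-coding genes alone were not measured, so the gap cannot be called particular to the members. The following stretches of 30 bases are shown because they hold these motifs, in capitals, in the most abundant members or in members described below. Each is given 5′ to 3′ on the gene's strand, and a motif on the other strand appears as its reverse complement.
MRPL3, chr3:131502985-131503014, minus strand, CCGGAAG: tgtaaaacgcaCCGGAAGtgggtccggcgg
MRPS34, chr16:1773187-1773216, minus strand, CCGGAAG reversed: cctcttcctcgCTTCCGGccgcgaccgaac
MRPS26, chr20:3046004-3046033, plus strand, CCGGAAG reversed: tccccgcgccgCTTCCGGggcacggtggcg
MRPL51, chr12:6493223-6493252, minus strand, AAGATGGC: gggtaaggcccAAGATGGCtgtcttcgcct
MRPL45, chr17:38297170-38297199, plus strand, AAGATGGC: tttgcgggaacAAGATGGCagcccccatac
MRPS18B, chr6:30617852-30617881, plus strand, AAGATGGC: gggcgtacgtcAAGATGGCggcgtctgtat
MRPS18B, chr6:30617806-30617835, plus strand, GCATGCGC: agtttcctgaaGCATGCGCagttgcctttc
MRPL17, chr11:6683401-6683430, minus strand, GCATGCGC: ggctctgatgcGCATGCGCaaacacgttca
A match is a description of the letters and not of a bound site. In MRPL51, MRPL45 and MRPS18B the YY1 core ends in the letters ATGGC just downstream of the annotated start.

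In control cells most members were expressed at moderate levels, and the means ran from 0.0367 FPKM for MRPS24 to 62.5 for MRPL3. The median of the 78 control means was 11.9 FPKM, and 41 members lay from 5 to under 20 FPKM. A further 17 lay from 20 to under 40, 6 reached 40 or more, 9 lay from 1 to under 5, and 5 were under 1. The order of the members hardly differed between the groups, with a Spearman correlation of 0.976 between their control and I1 means. That value describes 78 genes whose levels share length and library, and it is no test. The plot of levels by library shows each member.

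**Figure D1:**
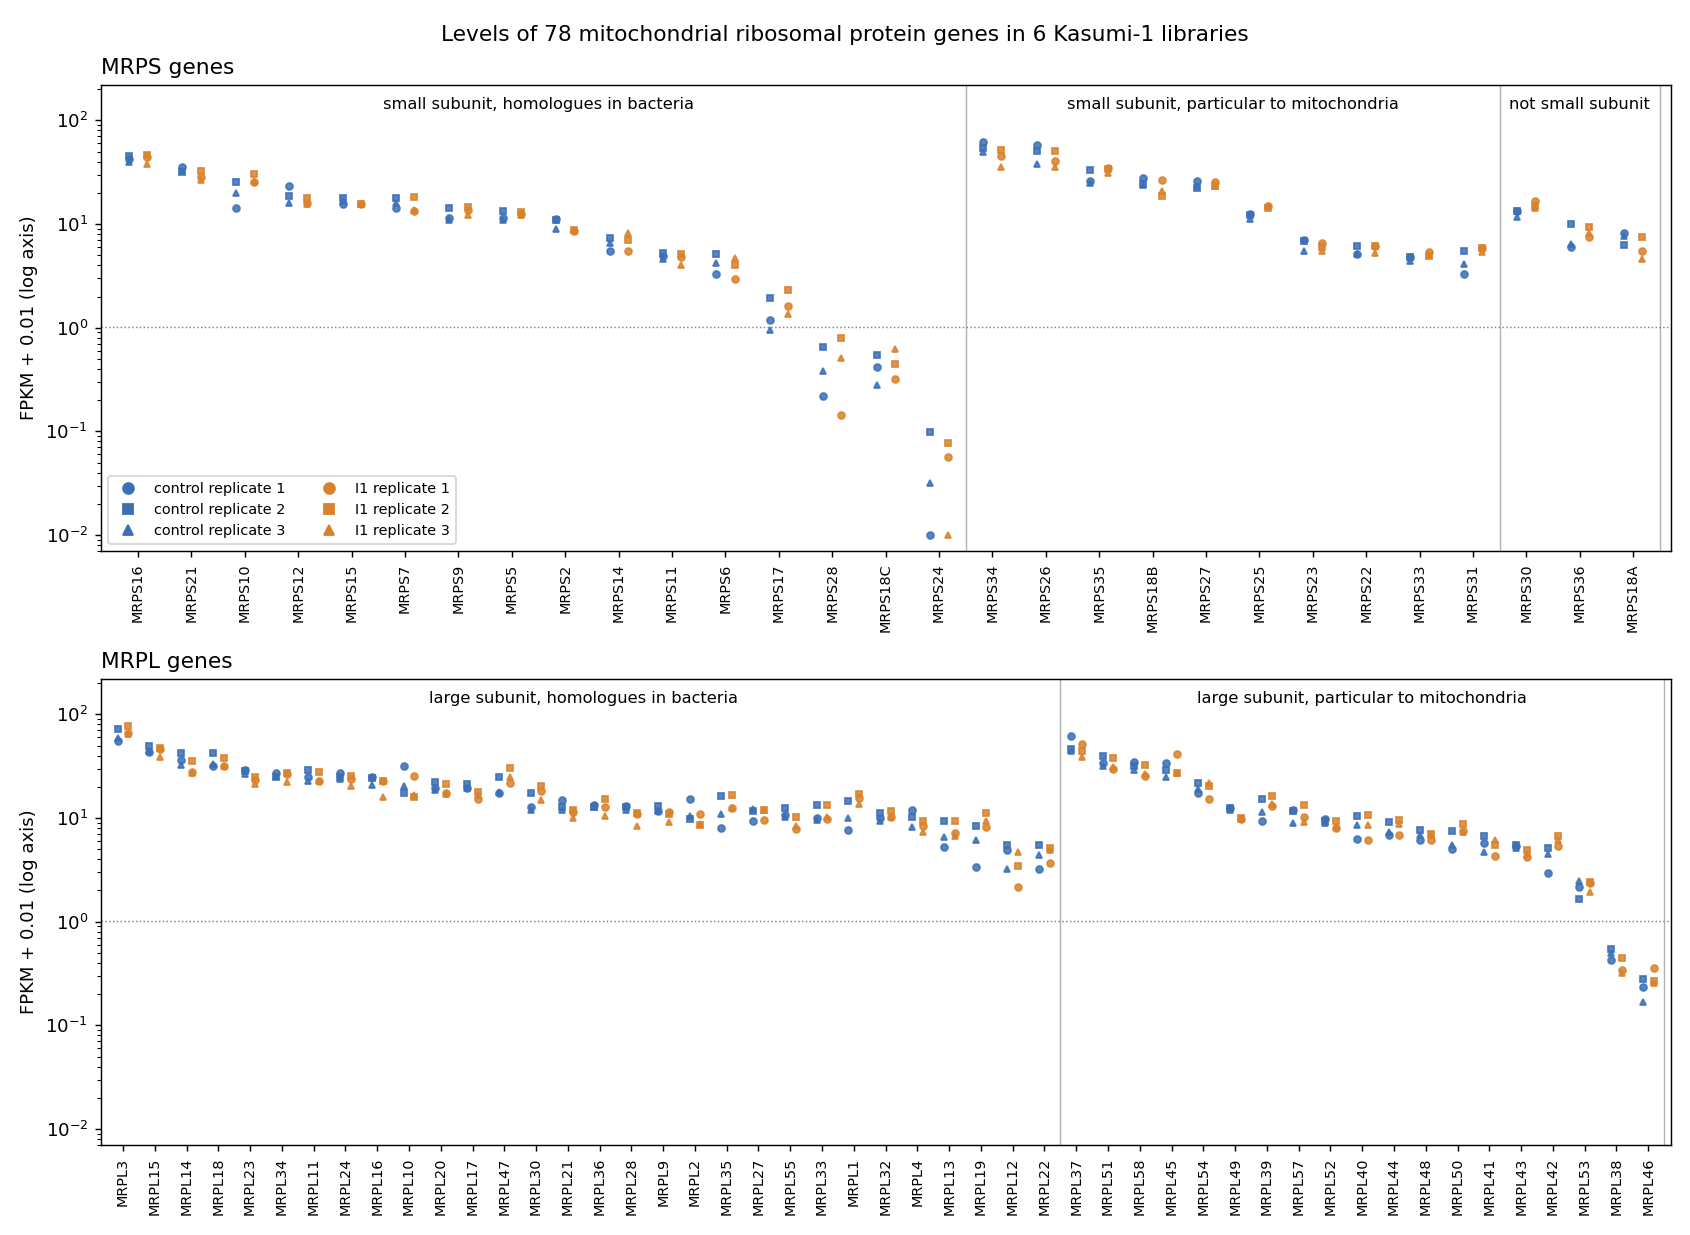
FPKM of the 78 mitochondrial ribosomal protein genes (log axis, with a small constant added so that 0 can be drawn) in 3 control libraries (blue) and 3 I1 libraries (orange), by structural group and in order of the control mean; the dotted line is at 1 FPKM. MRPL3 is highest at 62.5 FPKM in control, and MRPS24, MRPL46, MRPS18C, MRPS28 and MRPL38 lie under 1 FPKM in all libraries.

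Among the 16 small-subunit members with bacterial homologues, the control median was 11.1 FPKM. MRPS16, which has been found mutated in a respiratory chain disorder, had 42.4, 45.7 and 39.3 FPKM in control and 44.3, 46.6 and 38.0 with I1. MRPS21 had 35.5, 31.6 and 32.2 FPKM in control and 28.4, 32.6 and 26.5 with I1. MRPS10 had 14.2, 25.7 and 20.04 FPKM in control and 25.6, 30.5 and 25.8 with I1. The values of these 3 genes overlapped between the groups, although in MRPS10 only control replicate 2 reached the I1 range. MRPS12, the homologue of the bacterial decoding-centre protein in which streptomycin resistance mutations arise, had 23.5, 18.6 and 16.1 FPKM in control and 16.0, 17.8 and 15.6 with I1. At the low end, MRPS18C had 0.406, 0.534 and 0.267 FPKM in control and 0.313, 0.437 and 0.618 with I1, from 23 to 50 reads. MRPS24 was the lowest of all members, with 0, 4 and 1 reads in control and 2, 3 and 0 with I1.

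The 10 other small-subunit members, whose places in the ribosome have no counterpart in bacteria, had a control median of 17.9 FPKM. MRPS34, a protein needed for the stability of the small subunit and the second most abundant member by FPKM, had 61.4, 54.7 and 49.7 FPKM in control and 45.7, 52.0 and 35.3 with I1. MRPS26 had 57.9, 50.3 and 37.6 FPKM in control and 40.2, 50.3 and 35.4 with I1. MRPS35 had 28.2 ± 4.73 FPKM in control and 33.3 ± 1.75 with I1 (SD, n = 3 each). In each of these 3 genes the groups overlapped. The lowest of the 10 were MRPS33 at 4.68 ± 0.226 and MRPS31 at 4.31 ± 1.1 FPKM in control (SD, n = 3 each). MRPS22, a protein of this group found mutated in mitochondrial disease, had 5.47 ± 0.545 FPKM in control and 5.87 ± 0.523 with I1 (SD, n = 3 each).

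The 30 large-subunit members with bacterial homologues had a control median of 13.1 FPKM. MRPL3, the homologue of a core protein close to the peptidyl transferase centre, was the highest member of all. Its values were 55.4, 72.6 and 59.3 FPKM in control and 65.9, 76.7 and 64.5 with I1. Replicate 2 was highest in both groups. MRPL15 had 43.8, 49.6 and 43.9 FPKM in control and 46.8, 47.0 and 39.1 with I1. For MRPL14 the values were 36.1, 42.5 and 32.7 FPKM in control and 27.5, 35.6 and 27.0 with I1. The lowest of the 30 were MRPL12 and MRPL22. MRPL12, the stalk protein that recruits translation factors and has also been reported to bind the mitochondrial RNA polymerase, had 4.86, 5.501 and 3.25 FPKM in control and 2.14, 3.44 and 4.68 with I1, from 36 to 98 reads. MRPL22, at the polypeptide exit tunnel, had 4.36 ± 1.11 FPKM in control and 4.59 ± 0.774 with I1 (SD, n = 3 each).

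The 19 other large-subunit members, grouped as particular to the mitochondrial ribosome, had a control median of 8.41 FPKM. MRPL37 had 62.0, 46.7 and 44.3 FPKM in control and 51.8, 43.8 and 38.8 with I1. MRPL51 had 33.6, 39.2 and 32.0 FPKM in control and 29.7, 38.3 and 30.8 with I1. MRPL58, a peptidyl-tRNA hydrolase built into the ribosome and also known as ICT1, had 32.1 ± 2.88 FPKM in control and 28.3 ± 3.62 with I1 (SD, n = 3 each). The groups of all 3 overlapped. MRPL44, which has the fold of a ribonuclease III, had 7.74 ± 1.16 FPKM in control against 8.40 ± 1.39 with I1 (SD, n = 3 each). For MRPL57 the means were 10.9 ± 1.65 and 10.9 ± 2.15 FPKM (SD, n = 3 each). The lowest were MRPL38 at 0.483 ± 0.0586 FPKM and MRPL46 at 0.216 ± 0.0557 FPKM in control (SD, n = 3 each).

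MRPS18A, MRPS18B and MRPS18C are paralogues related to 1 bacterial small-subunit protein. MRPS18C sits where that protein does, and the other two occupy places particular to mitochondria, by which they are grouped here. MRPS18B had 27.6, 24.3 and 23.7 FPKM in control and 26.5, 18.6 and 20.8 with I1. MRPS18A had 8.17, 6.25 and 7.66 FPKM in control and 5.46, 7.49 and 4.54 with I1. The order MRPS18B, MRPS18A, MRPS18C was the same in all 6 libraries, with no overlap between neighbours. The level of MRPS18C, and so its place in this order, is uncertain, because 78.9% of its main transcript lies in exons of ABRAXAS1, as described below. MRPS30, the other large-subunit protein with a small-subunit name, had 13.4, 13.3 and 11.6 FPKM in control and 16.5, 14.8 and 14.3 with I1. MRPS36 had 6.00, 10.1 and 6.39 FPKM in control and 7.54, 9.37 and 8.22 with I1.

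The order of the members depended on the length by which reads were divided. The deposited values use the length of all annotated exons of a gene, whereas most mitoribosomal messages are short. Dividing the same reads by the length of 1 main coding transcript gave an order with a Spearman correlation of 0.777 to the deposited one across the 78 genes. Reads in exons outside that transcript were kept, so a level on this scale is too high where there are such reads. Their share was not measured, and ranks on the main-transcript scale are therefore uncertain. MRPL42 moved most in the upper range: its exons cover 16393 bases and its main transcript 701, so that a control mean of 4.18 FPKM became 97.8 on the main-transcript scale, and its rank went from 71 to 4. MRPL23 went from 28.0 FPKM to 136 and from rank 14 to rank 1. MRPS27, a protein with pentatricopeptide repeats, went from 23.9 FPKM to 114 and from rank 19 to rank 3. MRPL3 stayed near the top on both scales, at 62.5 and 116. A plain ratio of FPKM between the groups does not depend on this length. The fold changes below, taken on log2(FPKM + 1), and the filter at 1 FPKM do depend on it. MRPS18C and MRPL46, under the filter at 0.402 and 0.216 FPKM in control, stood at 1.19 and 1.37 on the main-transcript scale.

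The members with the lowest levels overlap other annotated genes. For each member the share of its main coding transcript that lies within exons of another gene of GENCODE release 29 was measured, and the bounds of the classes below were chosen after the values were seen. The 44 members with no overlap had a median of 13.1 FPKM in control and ranged from 4.18 to 62.5. The 19 with up to 25% overlap had a median of 12.2 FPKM, and the 7 with 25 to 50% had 10.1. The 8 with more than 50% had a median of 0.445 FPKM, and 1 of the 8 reached 5 FPKM. All 5 members under 1 FPKM were among these 8, and these 5 did not pass the filter for testing.

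Each of the 8 overlaps a different gene. MRPS24 (chromosome 7, 43866558 to 43869893, minus strand) shared 85.7% of its transcript with the readthrough gene URGCP-MRPS24 on the same strand. MRPS18C (chromosome 4, 83455932 to 83469735, plus strand) shared 78.9% with ABRAXAS1 on the opposite strand. MRPL46 (chromosome 15, 88459476 to 88467419, minus strand) shared 71.1% with AC013489.1, and MRPL12 (chromosome 17, 81703357 to 81707526, plus strand) shared 68.2% with AC139530.2. MRPL38 (chromosome 17, 75898643 to 75905413, minus strand) shared 67.8% with AC087289.3, and MRPS28 (chromosome 8, 79918717 to 80030289, minus strand) shared 55.4% with AC036214.3. MRPL53 (chromosome 2, 74471958 to 74473322, minus strand) shared 52.3% with CCDC142 and had 2.17, 1.63 and 2.44 FPKM in control. The exception, MRPL33 (chromosome 2, 27771717 to 27988087, plus strand), shared 61.5% with BABAM2 and had 10.1, 13.4 and 9.48 FPKM in control and 9.83, 13.3 and 10.3 with I1. MRPS17, at 31.6% overlap, was also low at 1.35 ± 0.514 FPKM (SD, n = 3). How reads in shared exons, and reads that also match the processed pseudogenes that many of these genes have, were counted, the sources used here do not say, and the part of that counting in these low levels was not tested. The levels of the 8 are therefore uncertain. The plot of level against overlap shows all 78 members.

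**Figure D2:**
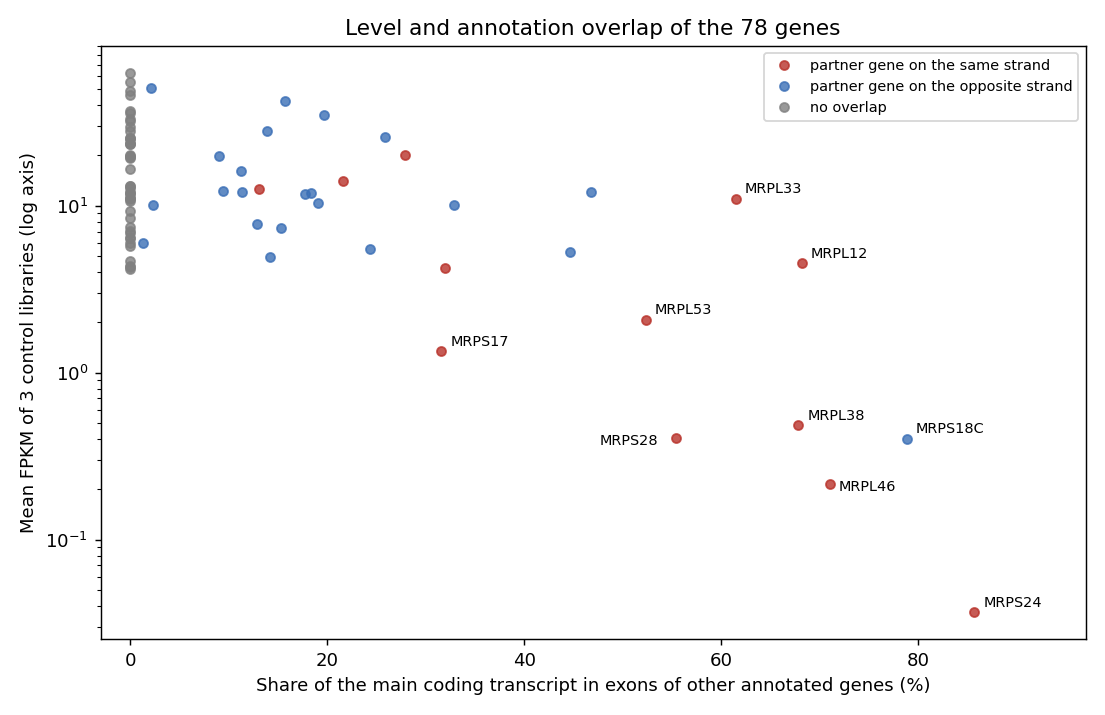
Mean FPKM of the 3 control libraries (log axis) against the percentage of each member's main coding transcript that lies in exons of other annotated genes; each point is 1 gene, coloured by the strand of the gene it shares most with. Of the 8 genes past 50%, MRPL33 at 11.0 FPKM is the one above 5, and the 44 genes without overlap run from 4.18 to 62.5.

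Some members have an annotated start close to that of a gene on the other strand. A protein-coding gene on the opposite strand started within 1000 bases of 25 members, and within 100 bases of 15. Starts here are the outer bounds of the annotated genes, which can differ from the starts of the promoter windows, and a neighbour could overlap the member. The share of all genes with such a neighbour was not measured, so the count cannot be called particular to the members. The starts of MRPL13 and MTBP were 2 bases apart, those of MRPL27 and EME1 6, those of MRPL21 and IGHMBP2 7, and those of MRPL30 and MITD1 21. In MRPL36 with NDUFS6 (34 bases) and MRPL47 with NDUFB5 (36 bases), the partner encodes a protein of respiratory complex I, and MRPS11 and MRPL46 (34 bases) are both members. Levels within a pair were close in some and far apart in others. MRPL50 had 6.01 FPKM in control beside 7.44 for ZNF189. MRPS34 had 55.3 FPKM in control beside 1.02 for EME2, while MRPL18 had 35.9 beside 101.2 for TCP1, a subunit of the cytosolic chaperonin. With I1, MRPL30 and MITD1 differed from control by 0.32 and 0.34 on the log2 scale, MRPL47 and NDUFB5 by 0.34 and 0.21, and MRPS34 and EME2 by -0.32 and -0.13. Other pairs did not share a size or a sign, with -0.04 and 0.09 for MRPL36 and NDUFS6 and 0.01 and 0.32 for MRPS27 and PTCD2. Fold changes followed GC content, as described below. In the order above, the GC contents of the pairs were 43.2 and 39.3%, 38.0 and 39.8%, and 64.5 and 65.4%. They were 65.2 and 53.9% for MRPL36 and NDUFS6, and 43.3 and 41.9% for MRPS27 and PTCD2. Whether pairs share a difference apart from GC content was not tested. None of these 10 genes passed the test described next.

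The comparison of I1 with control asked whether the messages of the mitoribosome differed after 48 h with the compound. None of the 73 tested members passed the threshold, which was a Benjamini-Hochberg adjusted p under 0.05 from limma on log2(FPKM + 1), over the 11913 genes that reached 1 FPKM in 3 or more libraries, together with a log2 difference of 1 or more either way. In whole cultures fewer cells with a message and less of it per cell cannot be told apart. The background was low too, with 4 genes called in all (0.0336%), and the count was the same by adjusted p alone. All members are protein-coding, and of the 9858 tested protein-coding genes 0 were called, so a count of 0 is not particular to the members. The protein-coding count was also 0 when the replicate number was a block in the model. The smallest adjusted p of a member was 0.467, and 0.140 when the replicate number was a block in the model, where again 0 members passed and 0.0504% of all genes did. At an unadjusted p under 0.05, 4 members were higher with I1 (background 6.8%) and 3 were lower (background 2.77%). With the block these were 12 and 9 members, where the background was 17.1% and 9.96%. The 4 and 3 members of the fit without the block make up 5.48% and 4.11% of the 73, near those backgrounds.

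The intervals of the fit without the block limit what could have been missed on the scale of log2(FPKM + 1). This scale understates changes of low genes: MRPL12 stood at -0.34 on it and at -0.43 with a pseudocount of 0.1. If the replicates were technical, the intervals also leave out the spread between separate cultures. Of the 73 tested members, 71 had a 95% interval of the fold change that lay within 1 on this log2 scale in either direction. The intervals reached 0.349 to either side of the estimate in the median member, and 0.619 in the widest. The interval of MRPL1 ran from 0.04 to 1.03 and that of MRPL19 from 0.05 to 1.29. The median fold change of the members was -0.04, against 0.03 over all tested genes and 0.02 over the tested protein-coding genes. The quartiles were -0.19 and 0.10 in the members and -0.15 and 0.24 in all genes. Of the members 41 lay below 0 (56.2%), where 45.5% of all genes did. By pairs of equal replicate number, the members' medians were -0.03, -0.01 and -0.02. The plot of fold changes shows every member with its interval.

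**Figure D3:**
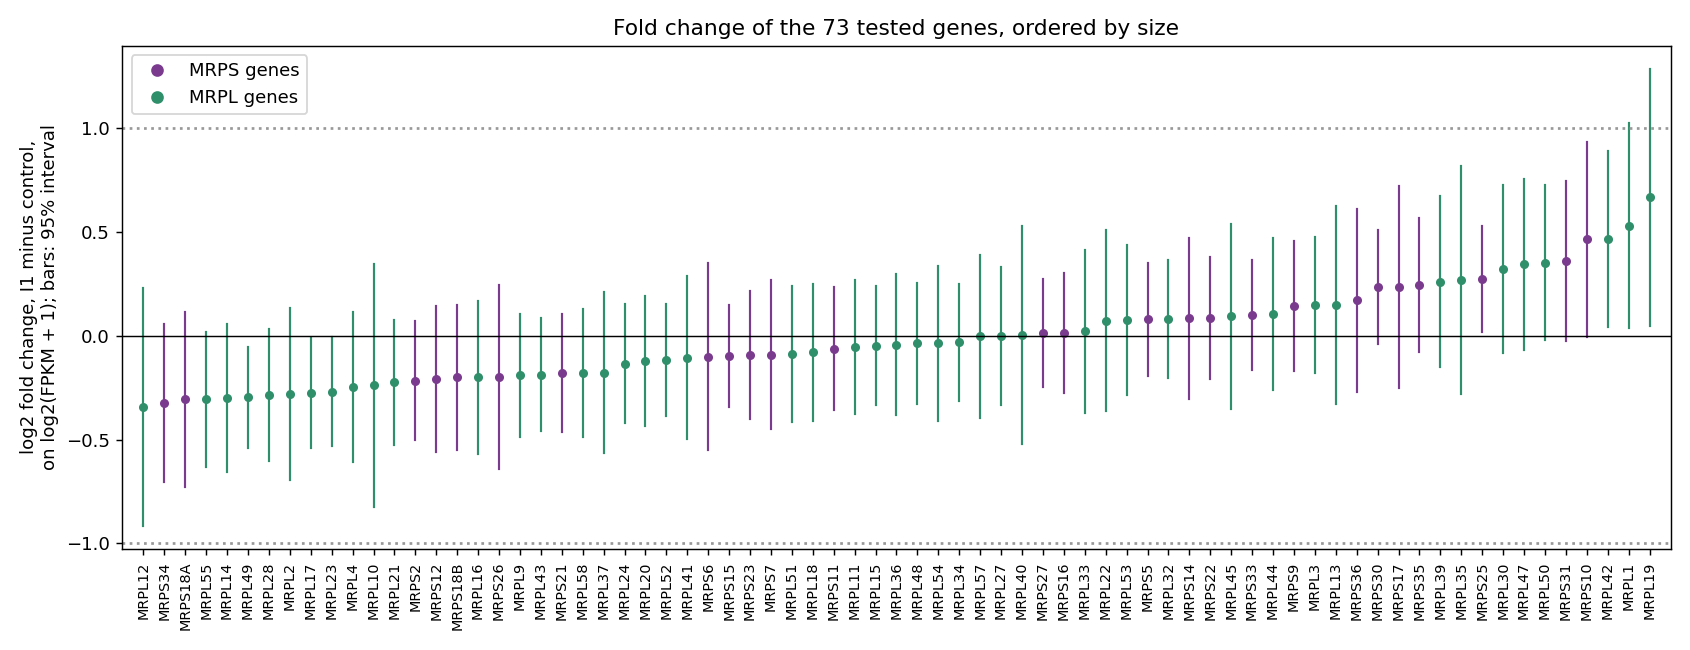
Log2 fold change (I1 minus control, on log2(FPKM + 1)) of the 73 tested members in order of size, with 95% intervals from limma; the dotted lines mark a fold change of 1 on the log2 scale in either direction. Values run from -0.34 for MRPL12 to 0.67 for MRPL19, and 71 intervals stay between the dotted lines.

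The summed level of the members was close in both groups. The 78 genes summed to 1275, 1360 and 1167 FPKM in control and to 1223, 1340 and 1135 FPKM with I1, each I1 library lying under the control library of its number. The means were 1267 ± 96.7 and 1233 ± 103 FPKM (SD, n = 3 each), a gap smaller than either SD. These SDs include a spread by replicate number that both groups share, with replicate 2 highest and replicate 3 lowest in each, so they do not measure the spread of the paired differences. The small subunit summed to 414 ± 31.4 FPKM in control and 402 ± 31.6 with I1, and the large subunit to 846 ± 65.3 and 822 ± 71.1 (SD, n = 3 each). The members' share of all FPKM ran from 0.421% to 0.482% in control and from 0.408% to 0.489% with I1. On this scale the direction of the pairs was not that of the sums, with 0.437% and then 0.458% in pair 1, 0.482% and 0.489% in pair 2, and 0.421% and 0.408% in pair 3.

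**Figure D4:**
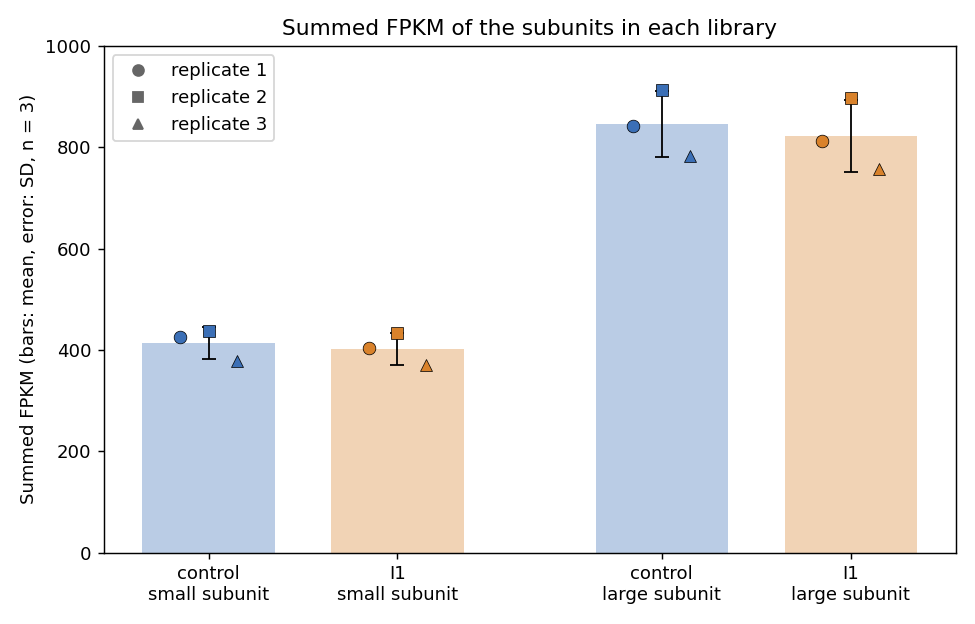
Summed FPKM of the 26 small-subunit and 51 large-subunit genes in each library; bars are means and error bars SD of 3 libraries, and points are libraries by replicate number. Replicate 2 is highest and replicate 3 lowest in both subunits and both groups.

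In these sums libraries of 1 group differed more than the libraries of 1 number did. Within the control group, replicate 2 was the highest library for 45 of the 73 tested members, and within the I1 group replicate 2 was highest for 54. Over all tested genes these shares were 38.9% and 39.3%. Replicate 3 was the lowest library for 40 members in control and 39 with I1. Control replicate 1, which stood apart on the first principal component, was highest for 26 members and lowest for 26.

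Of the 6 members with the highest fold changes, 5 lay under the members' median FPKM in control. MRPL19 had 3.37, 8.45 and 6.17 FPKM in control and 8.26, 11.3 and 9.40 with I1, a log2 difference of 0.67 (SE 0.268, adjusted p = 0.467). Control replicate 1 was lowest, and control replicate 2 lay within the I1 range. MRPL1, of the stalk at which deacylated tRNA leaves the ribosome, had 7.61, 14.6 and 9.89 FPKM in control and 15.7, 17.1 and 13.6 with I1, a difference of 0.53. MRPL42 had 2.96, 5.13 and 4.46 FPKM in control and 5.33, 6.71 and 6.14 with I1, a difference of 0.47, and its groups did not overlap. MRPS10 differed by 0.46. MRPS31 had 3.31, 5.49 and 4.13 FPKM in control and 5.92, 5.92 and 5.35 with I1, a difference of 0.36. MRPL50 had 5.04, 7.55 and 5.43 FPKM in control and 7.47, 8.78 and 7.33 with I1, a difference of 0.35. In all 6, each I1 library was above the control library of its number, and control replicate 1 was the lowest control. Without control replicate 1 the differences were 0.36 for MRPL19, 0.33 for MRPL1, 0.28 for MRPL42, 0.25 for MRPS10, 0.22 for MRPS31 and 0.25 for MRPL50, and the adjusted p by limma was 0.751 for each.

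The 6 lowest fold changes were smaller in size and included abundant members. MRPL12 differed by -0.34 (SE 0.248, adjusted p = 0.520), with its I1 value above control in the third pair. MRPS34 differed by -0.32 and MRPS18A by -0.31. MRPL55 had 10.6, 12.4 and 10.2 FPKM in control and 7.76, 10.2 and 8.39 with I1, a difference of -0.31. MRPL14 differed by -0.30. MRPL49 had 12.4, 12.5 and 11.9 FPKM in control and 9.69, 10.1 and 9.69 with I1, a difference of -0.30 (SE 0.105), and its 95% interval ran from -0.54 to -0.05. This gene had the smallest unadjusted p of the members, 0.0229, with an adjusted p of 0.467 by limma. Leaving out control replicate 1 gave differences from -0.33 to -0.24 for these 6. Other libraries mattered more: MRPL12 ranged from -0.55 without I1 replicate 3 to -0.12 without I1 replicate 1, with -0.22 without control replicate 2 and -0.52 without control replicate 3. MRPS34 was -0.17 and MRPS18A -0.17 without I1 replicate 3, and MRPS18A was -0.47 without I1 replicate 2.

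The groups did not overlap in 4 members on the higher side and 10 on the lower. MRPL42, MRPS25, MRPS30 and MRPS33 were higher in every I1 library than in any control (5.48% of the members, where the background was 12.9%). MRPL17, MRPL21, MRPL23, MRPL28, MRPL43, MRPL49, MRPL55, MRPL9, MRPS15 and MRPS2 were lower (13.7%, where the background was 8.74%). MRPS25 had 12.6, 12.2 and 11.1 FPKM in control and 14.8, 14.2 and 14.96 with I1. MRPL17 had 19.5, 21.4 and 19.6 FPKM in control and 15.1, 17.7 and 16.7 with I1. MRPL23, which lies at the tunnel exit, had 29.1, 28.4 and 26.6 FPKM in control and 23.5, 24.8 and 21.1 with I1. In these 3 genes the gap between the groups was small beside the level, with differences of 0.27, -0.28 and -0.27. After the correction for GC content described below, 4 of the 14 genes had turned sign, with -0.16 for MRPS30, -0.08 for MRPS33, 0.02 for MRPS2 and 0.00051 for MRPL43. MRPL21, MRPL23 and MRPL28 then stood at -0.0046, -0.04 and -0.03, while MRPS25, MRPL17 and MRPS15 stood at 0.25, -0.28 and -0.11. All 3 pairs were higher with I1 in 21 members (28.8%, background 32.1%) and lower in 25 (34.2%, background 25.8%).

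The fold change of a member followed the GC content of its longest transcript, as it did in the table as a whole. Across the 73 members the Spearman correlation between fold change and GC content was -0.797, and across the 11899 tested genes with a transcript sequence it was -0.753. Genes share libraries and base composition, and these values are descriptions. The 27 members under 45% GC had a median fold change of 0.15, and 24 of them were above 0. The 27 members from 45 to under 55% had a median of -0.09, with 7 above 0. The 19 members at 55% or more had a median of -0.22, and 18 were below 0. The medians of all genes in these bands were 0.26, -0.0031 and -0.19. The 6 members with the highest fold changes lie at 34.96 to 41.6% GC. The 6 members with the lowest fold changes lie between 51.7% for MRPL49 and 64.6% for MRPL12, with MRPS34 at 64.5%.

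The same gradient was present between the control libraries. Control replicate 1 differed from the mean of the other controls by a median of -0.29 in the members under 45% GC, -0.01 in the middle band and 0.11 in those at 55% or more. Without control replicate 1 the Spearman correlation of the members' fold change with GC content was -0.674. It was -0.821, -0.473 and -0.646 in pairs 1 to 3. After a smooth GC trend was removed from each library, the band medians were -0.08, -0.06 and -0.0046 and the correlation was 0.166. The differences then were 0.37 for MRPL19, 0.25 for MRPL1, 0.17 for MRPL42, 0.28 for MRPS10, 0.11 for MRPS31 and -0.03 for MRPL50. On the lower side they were -0.08 for MRPL12, -0.06 for MRPS34, -0.12 for MRPS18A, -0.09 for MRPL55, -0.14 for MRPL14 and -0.21 for MRPL49. The sign turned in 26 of the 73 members, 14 of them from above 0, as it did in 31.5% of all genes. The median of all members was -0.03 after the correction, against 0.04 for all genes. The plot of fold change against GC content shows both versions.

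**Figure D5:**
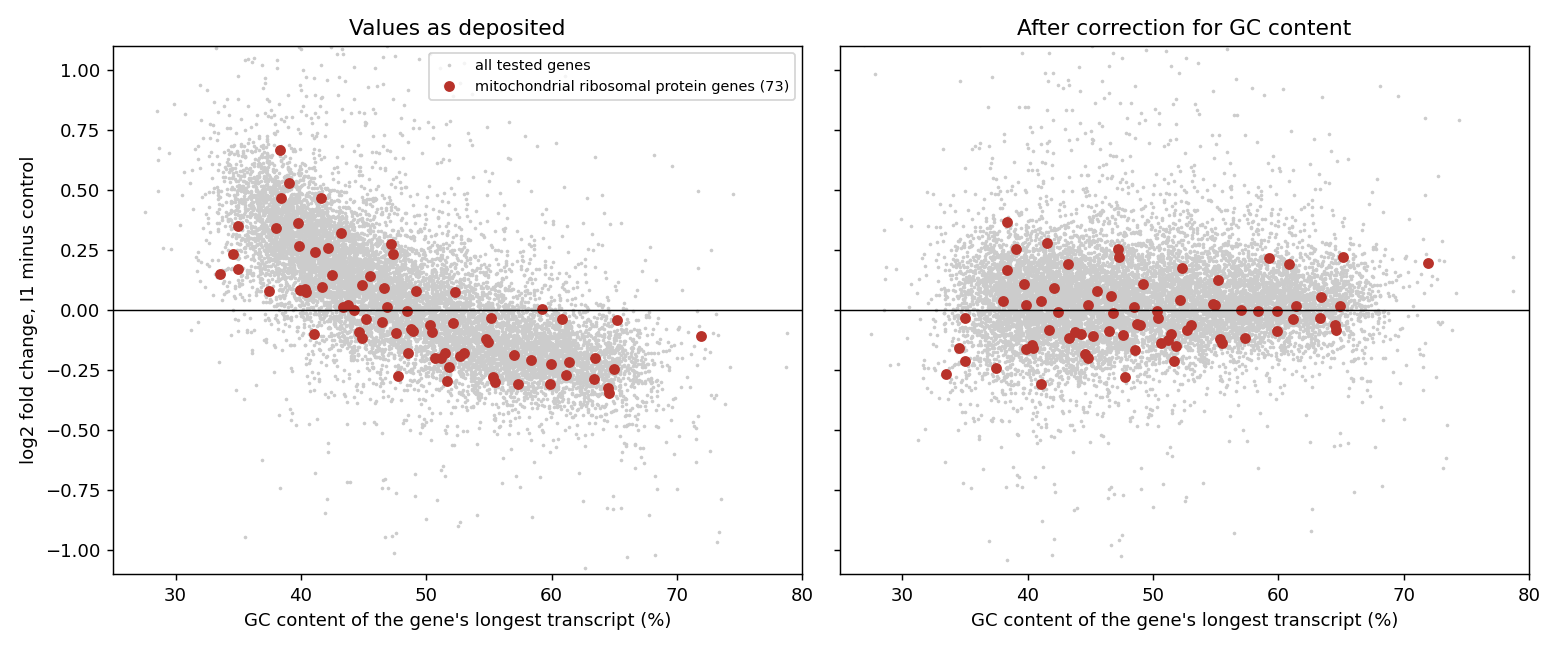
Log2 fold change (I1 minus control) against the GC content of the longest transcript in percent, for the 73 tested members (red) and all tested genes (grey; those past the axis limits are not drawn), as deposited and after a smooth GC trend was taken from each library. The Spearman correlation across the members is -0.797 before and 0.166 after the correction.

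By promoter motif the median fold changes were close for CCGGAAG and AAGATGGC, and too few genes held GCATGCGC to compare. Tested members with CCGGAAG had a median of -0.06 and those without it -0.03. The medians were -0.02 and -0.04 for AAGATGGC, and -0.12 and -0.04 for GCATGCGC, the last over 5 and 60 genes. These medians were not corrected for GC content.

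Genes that work with the mitoribosome were counted in 7 lists, and 0 members of each passed the threshold. By limma over all tested genes, 6.8% were higher and 2.77% lower at an unadjusted p under 0.05, the background of the list counts below. The 5 mitoribosomal proteins with other names had a median fold change of -0.06, with 0 at an unadjusted p under 0.05. GADD45GIP1 had 56.6, 58.2 and 50.6 FPKM in control and 49.3, 52.3 and 43.4 with I1, and AURKAIP1 had 56.6, 56.6 and 49.7 and then 47.2, 52.7 and 43.9, levels in the range of the most abundant members. Of the 23 assembly factors, whose median was 0.05, 2 were higher and 1 lower at an unadjusted p under 0.05. NOA1, a GTPase of mitoribosome assembly, had 83.2, 45.6 and 48.0 FPKM in control and 69.7, 43.9 and 41.1 with I1, with replicate 1 highest in both groups. DHX30, an RNA helicase, had 30.8 ± 2.75 FPKM in control and 26.3 ± 3.26 with I1 (SD, n = 3 each). GTPBP10, another assembly GTPase, differed by 0.47 and the methyltransferase MRM3 by -0.30, and after the GC correction by 0.10 and -0.15.

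The 16 translation factors had a median fold change of 0.08, with 1 higher and 0 lower at an unadjusted p under 0.05. TUFM, the elongation factor that brings aminoacyl-tRNA to the ribosome, had 104, 76.8 and 77.0 FPKM in control and 75.2, 68.2 and 60.3 with I1, a difference of -0.32. GUF1, the mitochondrial homologue of bacterial LepA, had 8.98, 16.4 and 14.3 FPKM in control and 18.7, 19.5 and 20.5 with I1, a difference of 0.57. The groups of neither gene overlapped. Over all tested genes, 8.74% were lower with no overlap, as TUFM was, and 12.9% higher, as GUF1 was. After the GC correction the differences of TUFM and GUF1 were -0.13 and 0.32. LRPPRC, which stabilises mitochondrial messages, differed by 0.24, and by 0.08 after the correction. Among 16 tested aminoacyl-tRNA synthetases of 17, with a median of -0.05 and 0 at an unadjusted p under 0.05, the largest differences were -0.27 for PARS2 and 0.07 for RARS2. IARS2 was the most abundant of them at 38.3 ± 8.07 FPKM in control (SD, n = 3).

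The 9 genes of mitochondrial DNA transcription and replication had a median of 0.18, with 1 higher and 0 lower at an unadjusted p under 0.05. TFAM, which packages mitochondrial DNA and starts its transcription, had 8.30, 19.9 and 13.2 FPKM in control and 19.4, 24.7 and 20.9 with I1, a difference of 0.69. Control replicate 2 lay within the I1 range, and the difference was 0.39 both without control replicate 1 and after the GC correction. POLRMT, the mitochondrial RNA polymerase, differed by -0.29, and by -0.02 after the correction. Of the biogenesis regulators, 8 of 9 were tested, with a median of 0.07 and 1 lower at an unadjusted p under 0.05. ESRRA, a nuclear receptor that drives genes of oxidative metabolism, had 31.6, 20.3 and 20.7 FPKM in control and 18.8, 18.1 and 15.03 with I1, a difference of -0.44, and GABPA, the DNA-binding subunit of an ETS factor, differed by 0.46. After the GC correction these were -0.19 and 0.12. MYC had 538, 337 and 297 FPKM in control and 393, 308 and 309 with I1.

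The RNAs of the mitochondrial genome include the products that the mitoribosome translates and the 2 ribosomal RNAs on which its proteins assemble. The 15 listed had a median fold change of -0.16, with pair medians of -0.46, -0.13 and 0.11, so that the pairs did not share a direction. MT-CO3 had 9048 FPKM and MT-CO1 6667 FPKM on average in control. MT-ATP8, the lowest of the 15 at 18.4 FPKM on average in control, differed by 0.48, and MT-ND5 by -0.32. MT-ATP6, also for a subunit of ATP synthase, had 2717 FPKM on average in control and differed by -0.19. The difference of MT-ATP8 was 0.17 when control replicate 1 was left out and 0.77 when control replicate 2 was. It was 0.88 without I1 replicate 1 and 0.07 without I1 replicate 2. That of MT-ND5 was 0.0027 without I1 replicate 1. Libraries were made from polyadenylated RNA, which limits what the levels of mitochondrial ribosomal RNA can show. None of the 15 reached an unadjusted p under 0.05 in limma.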

How the data were processed

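RNA of 6 Kasumi-1 samples, 3 control and 3 with I1, was isolated with Trizol and prepared with a stranded TruSeq mRNA kit, per the labels' protocols. Trimmomatic, HISAT2, Cufflinks and HTSeq and the build hg38 are named in the submitters' processing notes; the sources used here give no versions, roles or annotation and do not say whether counting used strand. A single table of FPKM values was deposited. Although its title mentions different lines and a different agent, every column carries the title of 1 of the 6 samples, and 0 columns were left unused. Symbols, exon lengths and coordinates (hg38, 1-based) came from GENCODE release 29, which matched 29703 of 29810 genes.

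With these lengths the deposited FPKM values gave whole reads (within 0.05) in all libraries for 95.8% of genes and for 77 of the 78 members, from library totals of 16391000 to 18204000; 1 read per kilobase was worth 0.0549 to 0.0610 FPKM. Fold changes were taken on log2(FPKM + 1), which understates those of low genes, where 3 or more libraries reached 1 FPKM, by limma 3.58.1 with an intensity trend in R 4.3.3, 2-sided, and the script was tested on simulated data. Same-numbered samples deviated together from their group means (correlations 0.476, 0.457 and 0.412, against -0.348 to -0.0987 for other numbers), which was taken to pair them. Deviations from a group mean cancel within each group, so positive values for equal numbers make the others negative on balance. The negative values are therefore no separate support for the pairing. The GC trend was removed per library by a local regression with a span of 0.4.

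Genes were named by a rule: in each structural group the 3 highest and 2 lowest in control, the 6 largest rises and falls, members known from disease or structure, and members under the filter; in each related list the 2 highest and the largest rise and fall. The genes whose groups do not overlap and those with other lengths, partners or overlaps were added after their values were seen. The members and all lists were chosen with earlier results of these data known. Alternatives were other pseudocounts, filters, scalings, corrections, weights, the block and leaving out each library.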

Additional observations from a re-analysis of the deposited data

How the results depend on the processing

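With 3 samples a group, and a threshold that also asked for a log2 difference of 1, smaller differences of members could not be called. The count of called members was 0 under all 20 alternatives tried, as was that of the related lists, and the smallest adjusted p of a member ran from 0.128 to 0.956. The members' median fold change, -0.04, ranged from -0.10 to 0.03 over them and from -0.10 to 0.01 when single libraries were left out, so it has no stable sign. The median of all tested genes moved as well, from -0.024 with quantile normalization to 0.091 with TPM. The members' highest median, 0.026, came with the length correction, where that of all tested genes was 0.034. The log2 ratio of the summed FPKM, -0.04, ranged from -0.10 to 0.02. The count over all genes, 4, was 0 with a pseudocount of 0.1 or 0.5, without a filter, with a mean of at least 5 FPKM, with TPM or with protein-coding genes alone; 1 with a length correction; 2 with quantile normalization, a GC correction or the replicate block with a GC correction; 14 with array weights; and 0 to 2 when single libraries were left out. The replicate block alone gave 6 and changed no call among the members and lists. Of the members and list genes named for the size of their change, signs turned with the GC correction, with and without the replicate block, for MRPL50 (-0.032), GADD45GIP1 (0.036) and RARS2 (-0.10). Over all 73 tested members the sign turned in 26, and over the 92 tested list genes in 32. When single libraries were left out, RARS2 ranged from -0.091 (without control replicate 1; -0.078 without I1 replicate 2) to 0.24, and MT-ND5 from -0.52 to 0.0027 (without I1 replicate 1). The cause of these changes was not tested. MRPL12, GTPBP10, MRM3 and PARS2 could not be tested with a mean of at least 5 FPKM.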
